A study of Homo sapiens with 8 samples.

Results

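The miR-10, miR-99/100 and miR-125 families were followed in exosomes, small vesicles that cells release with RNA inside. Members were all rows of the exosome table whose names begin with miR-10a, miR-10b, miR-99a, miR-99b, miR-100, miR-125a or miR-125b, which gave 9 of 286 entries. Exosomes came from THP-1, a human monocytic leukaemia line with the genotype given as wild type, grown in medium with 10% fetal bovine serum. They were labelled M2-exo (1 library) and M0-exo (1 library); M2 and M0 are the usual names for alternatively activated and unpolarised macrophages, and the labels do not name the agents used to obtain each state. Recipient Caco-2 cells, a wild-type colorectal carcinoma line grown with 18% serum that stands for intestinal epithelium in the series, received M2-exo (3 libraries) or phosphate-buffered saline (3 libraries, untreated). The labels give no dose, no time and no word on whether the replicates were separate cultures. A p-value here is thus set against the spread of these samples alone, and that spread may be technical.

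Micro-RNAs guide Argonaute proteins to messenger RNAs that pair with the seed, bases 2 to 8 of the mature strand, and lower the output of those messengers. The miR-10 genes sit inside HOX clusters and are known regulators of HOX genes. The miR-99 and miR-100 genes are known for restraining mTOR signalling, and the miR-125 genes for blood cell development, apoptosis and the let-7 inhibitor LIN28. In the human genome miR-99 or miR-100, a let-7 gene and a miR-125 gene lie together in several clusters, and each hairpin can yield a 5p and a 3p strand.

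The mature strands are shown for their seeds and for how few bases separate the members. Families below are summed by name, not by seed, so they include the 3p strands miR-99b-3p and miR-125b-1-3p, which have other seeds. RefSeq (GRCh38.p14) held 8 of the 9 members, at 9 loci; miR-10b-5p was not among them. Capitals mark the seed, and each strand is written 5′ to 3′.
miR-100-5p: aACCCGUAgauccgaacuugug
miR-99a-5p: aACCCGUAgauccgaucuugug
miR-99b-5p: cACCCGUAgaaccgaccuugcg
miR-10a-5p: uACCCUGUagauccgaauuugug
miR-125a-5p: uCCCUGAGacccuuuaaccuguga
miR-125b-5p: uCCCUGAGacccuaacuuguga
miR-99b-3p: cAAGCUCGugucuguggguccg

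The first 3 strands share the seed ACCCGUA, miR-10a-5p has ACCCUGU, and miR-125a-5p and miR-125b-5p share CCCUGAG. No other entry among the 249 of the table with a RefSeq sequence had any of these seeds. Entries without such a sequence, among them the member miR-10b-5p, could not be compared. Counted from 1 at the 5′ end of miR-100-5p, miR-99a-5p differed from it by 1 base (A16U) and miR-99b-5p by 4 (A1C, U11A, A16C and U21C). The longest run shared by miR-100-5p and miR-10a-5p was 11 bases, GUAGAUCCGAA. No source used here says how mismatched reads were counted, so counts of miR-99a-5p and miR-100-5p could be split between them.

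On GRCh38, the miR-100-5p strand lies at chr11:122152275-122152296 (minus) and the miR-125b-1 hairpin at chr11:122099757-122099844 (minus), both within MIR100HG, a processed transcript, and on its strand. The miR-99a-5p strand lies at chr21:16539101-16539122 (plus) within the long noncoding gene MIR99AHG, as does a second miR-125b-5p copy at chr21:16590253-16590274 (plus). The miR-99b-5p and miR-125a-5p strands lie at chr19:51692618-51692639 and chr19:51693268-51693291 (plus), within the span of SPACA6, a protein-coding gene on the same strand. The miR-10a-5p strand lies at chr17:48579904-48579926 (minus) within the spans of HOXB3 and HOXB4, and the miR-10b hairpin at chr2:176150303-176150412 (plus) within that of HOXD3. Whether these places are exonic or intronic was not read, since no exon annotation was used here.

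The M2-exo total was 9929 counts and the M0-exo total 13584, and the labels do not say if these are whole libraries. The 9 members together held 173 counts, or 1.74% of M2-exo (95% exact Clopper-Pearson interval 1.49 to 2.02), and 249 counts, or 1.83% of M0-exo (1.61 to 2.07). The ratio of these shares, M2-exo over M0-exo, was 0.951 (95% exact conditional binomial interval 0.778 to 1.16), or 0.755 (0.618 to 0.920) with TMM factors. All intervals and limits on exosome values cover counting error only. They take each read as an independent molecule, which reads without a molecular identifier need not be, so they may be too narrow. With 1 library a group, no test was possible and the values compare these libraries, not the conditions. The middle of the table, taken as TMM factors, lay 1.26-fold (log2 0.33) above equal shares. Each ratio of members, families or clusters is thus also given on that scale where its side of 1 or its interval changes. The TMM intervals take this factor as exact. Over the 84 entries that reached 10 counts in a library, the median ratio was 1.08, nearer to equal shares.

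The labels also tag the cells as stem cells, so myeloid micro-RNAs were looked up. Of the listed myeloid miRNAs all 6 had rows, with 310 counts in M2-exo and 369 in M0-exo, nearly all miR-155-5p and miR-146a-5p. The defining miR-223-3p and miR-142-3p each stood at 0 counts in M2-exo, for which the share of 3 counts, 0.0302%, was taken as the upper limit (exact upper bound 0.0371%), and 2 counts in M0-exo. Red cell and serum miRNAs (4 of 6 with rows) held 3.10% of M2-exo and 2.07% of M0-exo. Stromal miRNAs (5 of 7) held 3.39% and 2.30% in the same order, nearly all of it miR-143-3p, with at most 6 counts for each of the other 4 in either library, and epithelial miRNAs (8 of 10) 0.675% and 0.368%. Of their defining members, red cell miR-451a had 100 counts in M2-exo and 90 in M0-exo, smooth muscle miR-143-3p 324 and 306 in the same order, and epithelial miR-200c-3p 9 and 10. The epithelial entry with the most counts, miR-203a-3p, had 31 in M2-exo and 21 in M0-exo. The gut epithelial miR-192-5p and miR-194-5p had 2 counts each in M2-exo and 0 in M0-exo. The part of such other sources, or of the serum in the medium, in the members' values was not tested.

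**Figure D1:**
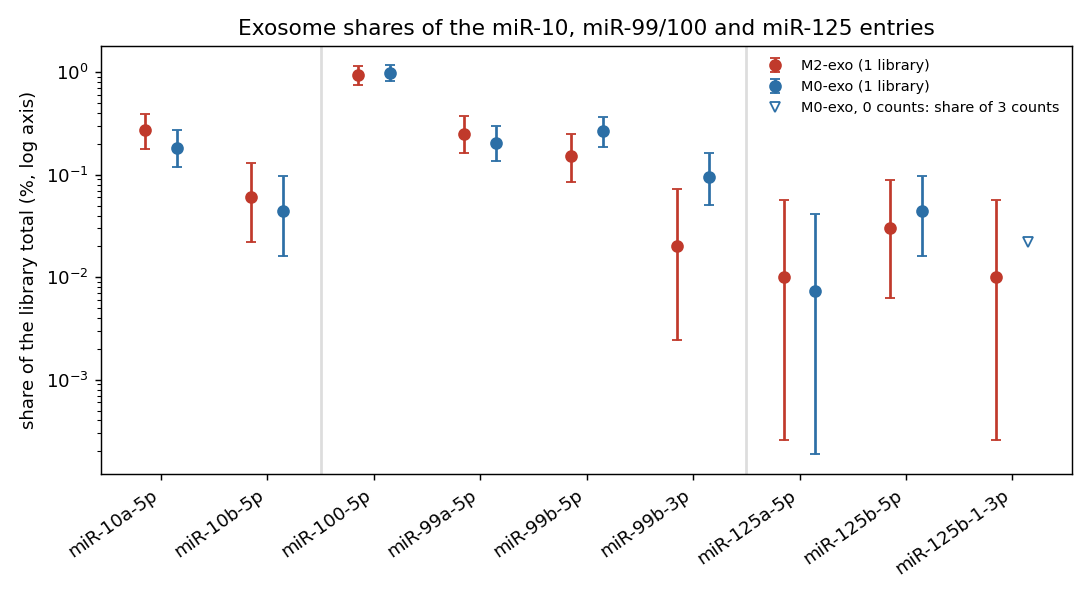
Share of the library total (percent, log axis) for the 9 members in M2-exo (red, 1 library) and M0-exo (blue, 1 library), with exact 95% counting intervals; the open triangle marks the share of 3 counts where M0-exo had 0. The level of miR-100-5p was near 1% in both libraries, the miR-125 entries were below 0.1%, and the drawn intervals overlapped for the 8 members counted in both libraries.

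In the miR-99/100 family, miR-100-5p was the most abundant member by far. It held 93 counts, or 0.937% of M2-exo (0.757 to 1.15), and 134 counts, or 0.986% of M0-exo (0.827 to 1.17), a ratio of 0.95 (0.721 to 1.25). With TMM factors this ratio was 0.754 (0.572 to 0.989). It ranked 22nd in M2-exo, between miR-320a-3p (94 counts) and miR-486-3p (91), and 17th in M0-exo, between miR-30d-5p (139) and let-7b-5p (128). Of all counts of the members, miR-100-5p made up 53.8% in M2-exo and 53.8% in M0-exo.

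The near-identical miR-99a-5p held 25 counts, or 0.252%, in M2-exo and 28 counts, or 0.206%, in M0-exo. Its ratio of 1.22 (0.683 to 2.17) turned to 0.970 with TMM factors and 0.996 with median ratio factors. Its level was below that of miR-100-5p by a factor that counting error did not cover, since miR-100-5p had 3.72 times as many counts in M2-exo (2.37 to 6.04) and 4.79 times as many in M0-exo (3.17 to 7.47).

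Both strands of the miR-99b hairpin had smaller shares in M2-exo. The guide strand miR-99b-5p held 15 counts, or 0.151% (0.0846 to 0.249), in M2-exo and 36 counts, or 0.265% (0.186 to 0.367), in M0-exo, a ratio of 0.570 (0.290 to 1.07). The opposite strand miR-99b-3p held 2 counts, or 0.0201%, in M2-exo and 13 counts, or 0.0957%, in M0-exo, a ratio of 0.210 (0.0231 to 0.930). Summed over both strands, a sum singled out after its values were seen, the hairpin held 17 counts, or 0.171%, in M2-exo and 49 counts, or 0.361%, in M0-exo, a ratio of 0.475 (0.256 to 0.839). Both strands thus stood on the same side, and only for miR-99b-3p and the sum did the interval leave out 1 by column totals. The interval of miR-99b-5p also did so with TMM factors (0.230 to 0.847), with median ratio factors (0.236 to 0.870), without miR-21-5p (0.262 to 0.966) and without the most abundant entries (0.255 to 0.937).

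The hairpin is shown because it was the sole member hairpin with more than 1 count from each strand in either library; capitals mark the 5p strand (bases 7 to 28) and the 3p strand (bases 45 to 66) at chr19:51692612-51692681 (plus, GRCh38.p14).
MIR99B: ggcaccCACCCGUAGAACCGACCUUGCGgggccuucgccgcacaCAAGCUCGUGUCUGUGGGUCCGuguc

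The 5p strand made up 88.2% of the hairpin's counts in M2-exo (63.6 to 98.5, of 17 counts) and 73.5% in M0-exo (58.9 to 85.1, of 49 counts), with overlapping intervals. The ratio of miR-99b over both strands was 0.4999 times that of miR-100-5p (0.254 to 0.951), 0.389 times that of miR-99a-5p (0.167 to 0.900) and 0.445 times that of the summed 7 other members (0.231 to 0.824). Such ratios of ratios do not depend on the scaling of the libraries. For miR-99b-5p alone the interval against miR-100-5p (0.289 to 1.20) and against miR-99a-5p (0.191 to 1.13) held 1, as it did for miR-99b-3p against miR-100-5p (0.0239 to 1.02). Without miR-99b, the remaining miR-99/100 entries held 118 counts in M2-exo and 162 in M0-exo, a ratio of 0.997 (0.779 to 1.27) by column totals. The whole family of 4 entries had 135 and 211 counts and a ratio of 0.875 (0.700 to 1.09), or 0.695 (0.556 to 0.867) with TMM factors. The sum without miR-99b was not put on the TMM scale, so its 0.997 cannot be set against 0.695. With TMM factors its single entries had ratios of 0.754 (miR-100-5p, 0.572 to 0.989) and 0.970 (miR-99a-5p, 0.542 to 1.72).

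**Figure D2:**
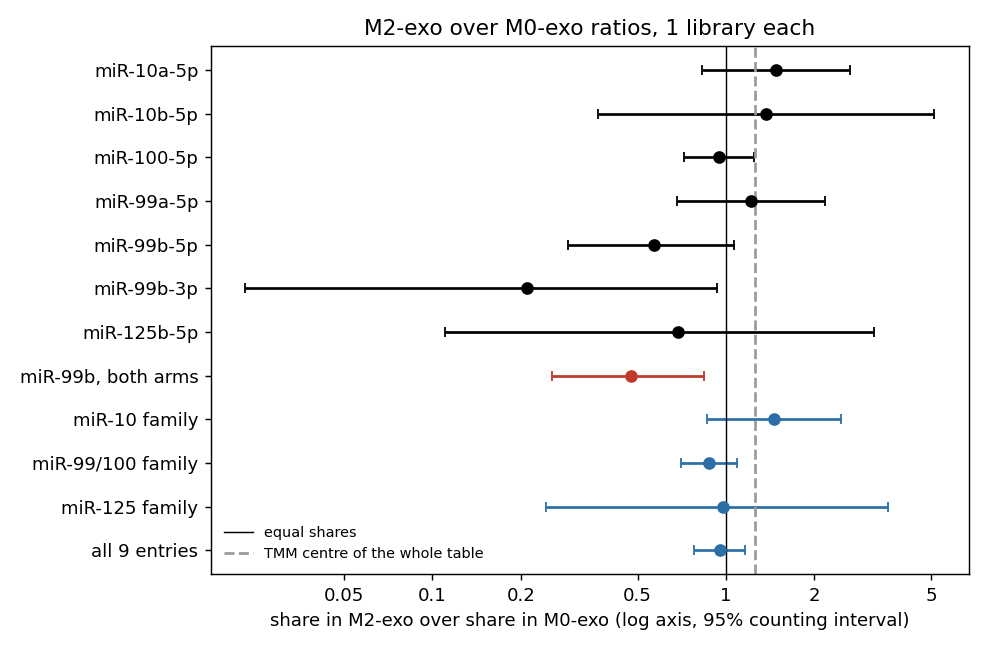
Ratio of shares, M2-exo over M0-exo (log axis), for members with more than 3 counts in a library (black), the summed miR-99b hairpin (red), and families (blue), with exact conditional 95% counting intervals; the dashed line is the TMM centre of the whole table. The intervals of miR-99b-3p (0.0231 to 0.930) and of the summed hairpin (0.256 to 0.839) lie below 1, and the other intervals cross it.

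In the miR-10 family the shares were larger in M2-exo, within counting error. The entry miR-10a-5p, whose gene lies within the span of HOXB4, held 27 counts, or 0.272%, in M2-exo and 25 counts, or 0.184%, in M0-exo, a ratio of 1.48 (0.825 to 2.65). It ranked 39th in M2-exo and 52nd in M0-exo. The entry miR-10b-5p, whose gene lies in the HOXD cluster, had 6 counts in M2-exo and 6 in M0-exo, a ratio of 1.37 (0.366 to 5.12). Together they held 0.332% of M2-exo and 0.228% of M0-exo, a ratio of 1.46 (0.865 to 2.46), or 1.16 (0.686 to 1.95) with TMM factors. The miR-10a-5p counts were 4.5 times those of miR-10b-5p in M2-exo (1.82 to 13.3) and 4.17 times in M0-exo (1.67 to 12.4). The family made up 19.1% of the members' counts in M2-exo and 12.4% in M0-exo. The ratio of miR-10a-5p was 1.56 times that of miR-100-5p (0.812 to 2.99), an interval that holds 1. For miR-99b over both strands the ratio was 0.321 times that of miR-10a-5p (0.137 to 0.746). That sum was singled out after its values were seen, and miR-10a-5p had the highest ratio of the 5 members that reached 10 counts. The interval does not allow for this choice of extremes, so no result is drawn from it.

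The miR-125 family was close to the limit of detection. The broadly expressed miR-125b-5p had 3 counts in M2-exo and 6 in M0-exo, a ratio of 0.684 (0.111 to 3.20). The entry miR-125a-5p had 1 count in each library. The strand miR-125b-1-3p had 1 count in M2-exo and 0 in M0-exo, for which the same limit of 3 counts is 0.0221% (exact upper bound 0.0272%). The 3 entries together held 5 counts in M2-exo and 7 in M0-exo (ratio 0.977, 0.245 to 3.58), so a difference of several-fold in either direction was not detectable at this depth. None of the 3p strands of miR-10a, miR-10b, miR-99a, miR-100 and miR-125a had a row in the table.

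Neighbours in one gene cluster differed widely in count. In the chromosome 11 cluster, miR-100-5p had 31.0 times the counts of miR-125b-5p in M2-exo (10.3 to 153) and 22.3 times in M0-exo (10.0 to 61.9), although miR-125b-5p can come from a second locus as well. Its other neighbour there, let-7a-5p, which also has further loci, stood at 356 counts in M2-exo and 454 in M0-exo, above miR-100-5p in both. In the chromosome 21 cluster, miR-99a-5p had 5.0 times the counts of let-7c-5p in M2-exo (1.88 to 16.7; let-7c-5p had 5 counts) and 4.0 times in M0-exo (1.71 to 10.8; 7 counts). In the chromosome 19 cluster, miR-99b-5p had 7.5 times the counts of let-7e-5p in M2-exo (1.74 to 67.6; 2 counts) and 7.2 times in M0-exo (2.82 to 23.5; 5 counts). It had 15 counts against 1 of miR-125a-5p in M2-exo and 36 against 1 in M0-exo. In all 3 clusters the miR-99 or miR-100 strand thus exceeded the miR-125 strand in both libraries. Summed over its 4 entries with rows, the chromosome 19 cluster held 20 counts in M2-exo and 55 in M0-exo, a ratio of 0.497 (0.282 to 0.843), of which miR-99b was the main part. The 2 entries of the chromosome 21 cluster without other loci gave 30 counts in M2-exo and 35 in M0-exo, a ratio of 1.17 (0.695 to 1.97), which turned to 0.931 (0.552 to 1.56) with TMM factors. For the chromosome 11 cluster, miR-100-5p and miR-125b-1-3p gave 94 counts in M2-exo and 134 in M0-exo, nearly all miR-100-5p. Their ratio was 0.960 (0.729 to 1.26), or 0.762 (0.579 to 0.999) with TMM factors.

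In the order of counts within each library, miR-100-5p stood above the next member by more than counting error, at 3.44 times miR-10a-5p in M2-exo (2.22 to 5.501) and 3.72 times miR-99b-5p in M0-exo (2.56 to 5.54). No other pair of neighbours in the order differed beyond its interval. In M2-exo the order below miR-100-5p was miR-10a-5p, miR-99a-5p, miR-99b-5p and miR-10b-5p, and in M0-exo it was miR-99b-5p, miR-99a-5p, miR-10a-5p and miR-99b-3p. Thus miR-99b-5p stood below miR-10a-5p and miR-99a-5p in M2-exo and above both in M0-exo.

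Among the 31 entries that reached 50 counts in one library or the other, miR-100-5p was the single member. It was not past 2-fold in either direction, nor was any of the 31 (0%). Its interval held 1, where 45.2% of the 31 had an interval wholly above 1 and 19.4% one wholly below. Of the 84 entries that reached 10 counts in one library or the other, 5 were members, and 1 of them, miR-99b-3p, had a ratio of at most 0.5, where 5.95% of all 84 did. No member of the 5 had a ratio of at least 2, where 9.52% of the 84 did. An interval wholly below 1 was found for 1 of the 5, again miR-99b-3p, against 11.9% of the 84, and an interval wholly above 1 for none, against 22.6%. The median ratio was 0.95 over the 5 members and 1.08 over the 84 entries. Counted from the lowest of the 84 ratios, miR-99b-3p was 1st, miR-99b-5p 10th, miR-100-5p 28th, miR-99a-5p 45th and miR-10a-5p 63rd. The entry miR-99b-3p passed the minimum through M0-exo alone, so it could not have had a ratio near 1 at its M2-exo count.

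**Figure D3:**
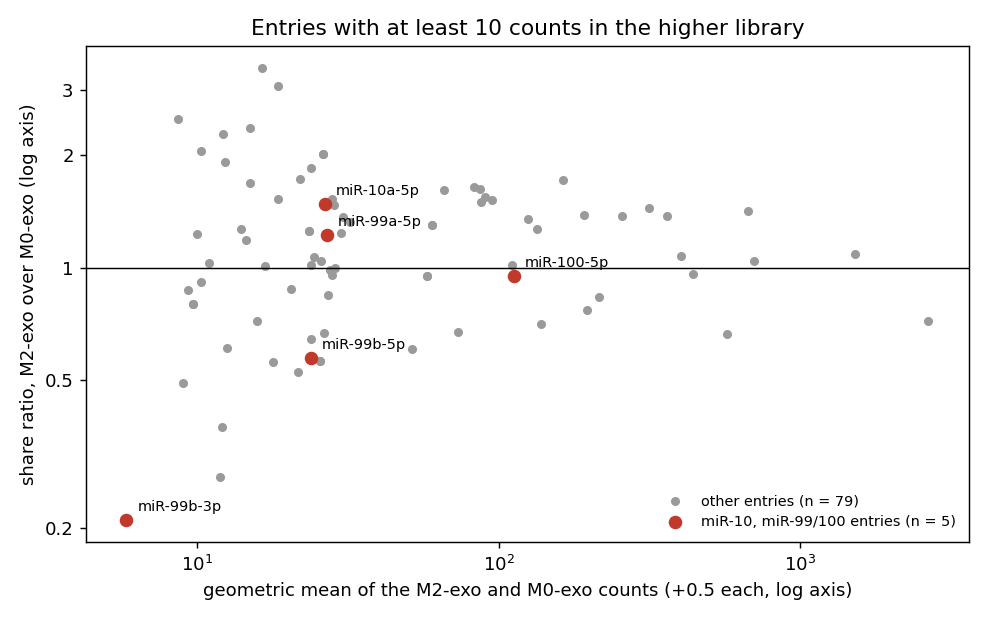
Share ratio, M2-exo over M0-exo (log axis), against the geometric mean (log axis) of the counts with 0.5 added, for the 84 entries that reached 10 counts in a library; red points are the 5 members and grey points the other 79. The ratios spread more widely at low counts, where miR-99b-3p (0.210) lies lowest, and miR-100-5p (0.95) lies close to 1.

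The genes that carry these micro-RNAs were little expressed in the recipient cells. Caco-2 mRNA libraries held 17408745 to 18184325 counts after M2-exo and 15608937 to 18324599 when untreated. The label Caco-2 was set against 6 epithelial and 6 leukocyte genes, on the deposited FPKM scale. The epithelial genes summed to between 1158 and 1405 FPKM in treated cells and between 1228 and 1534 FPKM in untreated cells, with KRT20 near 0 in both. The leukocyte genes summed to between 4.76 and 6.73 FPKM in treated cells and between 5.59 and 8.28 FPKM in untreated cells. CD68 was listed at 0 in all 6 libraries, PTPRC in 5 and ITGAM in 2 of them. CD14 was above 0 in all 6, at 3.37 to 3.77 FPKM in treated cells and 3.12 to 4.67 FPKM in untreated cells. LYZ (0.877 to 2.24 FPKM treated, 1.95 to 2.66 untreated) and CSF1R (0.467 to 1.06 treated, 0.518 to 0.942 untreated) were also above 0 in all 6. All 11 rows of hairpins of the 3 families and of their let-7 neighbours were at 0 in all 6 libraries, as was MIR100HG, and mRNA libraries are not made to catch mature micro-RNAs. MIR99AHG had 2 counts in all over the treated and 1 over the untreated libraries, and SPACA6 had 5 and 11 in the same order. Of the 21 listed host and neighbour genes in the table, 2 had enough counts to test. HOXB4, a homeobox transcription factor, had 3.82, 4.59 and 6.34 CPM in treated cells and 3.68, 4.36 and 7.19 CPM in untreated cells, and the groups overlapped (log2 fold change -0.05, SE 0.32, edgeR adjusted p = 0.9999). HOXB3, its neighbour, had 1.35, 1.15 and 1.73 CPM in treated cells and 0.634, 1.40 and 1.57 CPM in untreated cells, also overlapping (log2 0.22, SE 0.42, edgeR adjusted p = 0.9999).

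Listed target genes of the families were then read in Caco-2 cells given M2-exo. No listed gene passed the adjusted threshold of edgeR, where 0% of the 15084 genes tested did, and the count was 0 by DESeq2 and limma-voom too. At an unadjusted p under 0.05, edgeR gave 0 listed target genes and 111 of the 15084 genes tested. With so few over all genes, the 0 is not read as a result about the targets. For miR-10 targets, 10 of 18 tested were above 0 and 8 below, with a median log2 fold change of 0.03. For miR-99/100 targets, 8 of 17 were above 0 and 9 below (median -0.02), and for miR-125 targets 9 of 23 were above 0 and 14 below (median -0.02). Over all genes tested 47.1% were above 0 and the median was -0.01. Between 2 and 3 listed genes of each target list had too few counts to test, among them the homeobox gene HOXD10, a known miR-10b target, and LIN28A.

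Among miR-99/100 targets, MTOR, the kinase that couples nutrients to growth, had 129, 135 and 136 CPM in treated cells and 146, 140 and 137 CPM in untreated cells (log2 -0.08, SE 0.12, edgeR adjusted p = 0.9999). Each treated value was below each untreated one, by a small margin. The phosphoinositide phosphatase gene MTMR3 had 4.10, 2.18 and 4.23 CPM in treated cells and 4.69, 4.58 and 4.66 CPM in untreated cells (log2 -0.41, SE 0.30, edgeR adjusted p = 0.9999). Groups did not overlap in these 2 of the 17 tested genes, both lower in treated cells, where 2.3% of all genes tested had treated values below all untreated ones. Treated values above all untreated ones were found for 0 of the 17, and for 1.66% of all genes tested. None of the 18 miR-10 and 23 miR-125 targets tested was free of overlap in either direction. Without treated library 2, the log2 fold change of MTMR3 was -0.16. At the other end stood HS3ST3B1, a heparan sulphate sulphotransferase gene (0.40), FGFR3, a growth factor receptor gene (0.07), BAZ2A (0.07) and the chromatin remodeller gene SMARCD1 (0.07). On the lower side the Wnt receptor gene FZD8 (-0.34) and KBTBD8 (-0.08) completed the 4 smallest values, none of which passed.

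**Figure D4:**
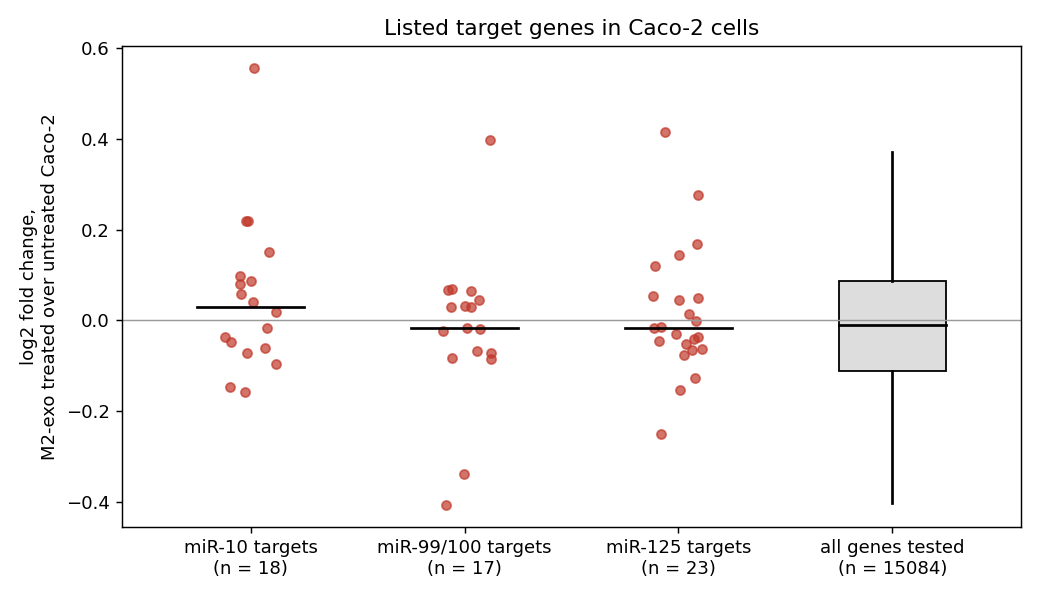
Log2 fold change, M2-exo treated over untreated Caco-2 cells (edgeR, 3 libraries each), of tested genes in the target lists (points, with bars at the medians), beside all genes tested (box, 25th to 75th percentile; whiskers, 5th to 95th). The list medians of 0.03, -0.02 and -0.02 lie close to the median of all genes, -0.01.

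Among miR-10 targets the highest value was that of KLF4, an epithelial differentiation factor, with 1.80, 2.41 and 2.95 CPM in treated cells and 1.21, 1.45 and 2.19 CPM in untreated cells (log2 0.56, SE 0.35, edgeR adjusted p = 0.9999); the groups overlapped. It was followed by the RAC activator gene TIAM1 (0.22), HOXB3 (0.22) and HOXA3 (0.15). Low values were those of the transcription factor gene USF2 (-0.16), the splicing factor gene TRA2B (-0.15) and the repressor gene BCL6 (-0.10). Among miR-125 targets, high values were those of ETS1 (0.41), the hexokinase gene HK2 (0.17) and the interleukin-6 receptor gene IL6R (0.14). The lowest were PRDM1, the gene of the repressor BLIMP1 (-0.25), the pro-apoptotic gene BMF (-0.15), STAT3 (-0.13) and ERBB3 (-0.08).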

How the data were processed

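The members and gene lists were chosen with earlier results of these data known. The deposited exosome table holds read counts per micro-RNA and TPM values; per the submitters' processing notes Bowtie was used, with no version or micro-RNA database named. The TPM values deposited by the authors equal each count over the column total, so only counts were used. The authors' Caco-2 tables hold counts per gene and FPKM; per the submitters' processing notes, CASAVA, HISAT2, featureCounts and the build GRCh38 were used. A total of 6 columns matching no sample were not used. Exosome shares were counts over the column total (scipy 1.17.1 for intervals), and TMM or median ratio factors were alternatives. The test on Caco-2 counts was that of edgeR 4.0.16, run in R 4.3.3 (filterByExpr, TMM, quasi-likelihood F test, 2-sided, Benjamini-Hochberg over all genes at 0.05), and the procedure was tested on simulated data. The SE of a log2 fold change was its size divided by the root of the F statistic, and CPM were scaled by TMM. DESeq2 1.42.0 (with its own filter), limma 3.58.1 and other scalings and filters were alternatives. Named target genes were the 4 largest and 4 smallest log2 fold changes of each list at a mean CPM of at least 1; MTOR is among the 4 smallest, and some genes that the rule gave are not reported here. The lists held 20, 20 and 25 target genes and 22 host genes. Gene symbols and coordinates come from the gene table, sequences from RefSeq. How counting treated strand and multiply mapped reads is not stated.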

Additional observations from a re-analysis of the deposited data

How the results depend on the processing

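Of 78 exosome values under alternatives, 71 stayed within the counting interval or, for a count of members, within 1.5 times of the value by column totals. With TMM factors the miR-99/100 ratio was 0.695 and that of all members 0.755 (0.775 with median ratio factors). Without miR-21-5p the members held 2.16% of M2-exo and 2.52% of M0-exo. With a minimum of 10 counts 1 of 5 members was past 2-fold (13 of 84 entries were), and with no minimum 2 of 9 (180 of 286), the added one being miR-125b-1-3p with 1 count in M2-exo and 0 in M0-exo. Alternatives for the gene clusters and the miR-99b sum were chosen after seeing the data, and the sum ranged from 0.377 to 0.475 over the scalings. In Caco-2 cells no listed gene was called under any alternative. Without 1 library at a time, list medians ranged from 0.001 to 0.11 for miR-10, from -0.04 to 0.04 for miR-99/100 and from -0.0145 to 0.0558 for miR-125 targets. Over all genes, calls were 6 without the filter and 1 without treated 2 (BOLA2B, log2 5.00, edgeR adjusted p = 0.00625). The replicate block in edgeR gave 0 calls and 211 genes with an unadjusted p under 0.05. After each gene's group mean was subtracted, same-numbered libraries correlated at 0.28, -0.06 and 0.48, and not each best with its own number. Leaving out 1 library moved the log2 fold change of each of the 23 named genes, none called, by over 1.5 times in at least 1 case. It ranged from -0.55 to -0.16 for MTMR3, from -0.09 to -0.04 for MTOR, from 0.39 to 0.85 for KLF4, from 0.0049 to 1.12 for HS3ST3B1 and from 0.12 to 0.87 for ETS1, and 7 others also kept their sign. Over all alternatives, not only those that left out a library, the sign turned in 19 of 322 single-gene values. Leaving out 1 library turned the sign for 11 genes. Those log2 fold changes ranged from -0.39 to 0.18 for USF2, from -0.22 to 0.061 for TRA2B, from -0.22 to 0.058 for BCL6, from -0.070 to 0.46 for HOXB3, from -0.77 to 0.11 for FZD8, from -0.20 to 0.0049 for KBTBD8, from -0.034 to 0.17 for BAZ2A, from -0.20 to 0.44 for FGFR3, from -0.56 to 0.046 for BMF, from -0.26 to 0.041 for ERBB3 and from -0.26 to 0.30 for HOXB4. The causes were not tested.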
